A study of Homo sapiens with 6 samples.

Results

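SNAI1, SNAI2, ZEB1, ZEB2, FOXC1, FOXC2, PRRX1, SOX4 and KLF8 encode transcription factors known as regulators of the epithelial-mesenchymal transition (EMT), the change by which epithelial cells lose their junctions and gain mesenchymal traits. The genes were chosen by name, and each was read from the locus of the deposited expression table whose symbol field held that name. All 9 were found, each as a locus with no second symbol, among 24294 loci. Of the 9 genes, 7 reached a mean of 1 FPKM (a level scaled to transcript length and library size) over the 6 libraries and were tested among 11574 such loci. Each of the 7 lay above that minimum in both groups. PRRX1 and KLF8 stayed far below it in every library and were not tested.

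The cells were MCF12A, a human mammary epithelial line known as immortalized and non-tumorigenic, which the labels call a breast cancer line. The first of the 2 groups stably over-expressed miR-424 and the other stably carried the empty vector (EV), with 3 samples each, and RNA for mRNA libraries was taken after 48 h of growth. The study's title places miR-424 downstream of the transcription factor TWIST1 in a partial EMT. The labels give neither the promoter of the construct nor the number of lines derived with it, and they do not say that the 3 samples of a group were separate cultures, so the p-values below cover sample-to-sample spread alone, and that spread may be technical.

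SNAI and ZEB proteins are zinc finger repressors that bind E-box motifs in the promoters of epithelial genes, E-cadherin (CDH1) above all, and recruit corepressors there. ZEB mRNAs are the best known targets of the miR-200 family, whose genes the ZEB proteins repress in turn. FOXC1 and FOXC2 (forkhead factors), SOX4 (an HMG-box factor induced by TGF-beta), PRRX1 (a homeodomain factor) and KLF8 (a Krüppel-like factor) act beside them in EMT. SNAI proteins are short-lived, so their mRNA is only part of their control.

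The mature microRNAs that bear on these genes are shown with bases 2 to 8, the seed that pairs with a target, in capitals (RefSeq, GRCh38.p14). miR-424-5p lies on the minus strand at chrX:134546680-134546701 and shares its seed with 6 other microRNAs, miR-15a-5p, miR-15b-5p, miR-16-5p, miR-195-5p, miR-497-5p and miR-6838-5p. miR-200c-3p lies on the plus strand at chr12:6963742-6963764 and shares its seed with miR-200b-3p and miR-429.

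hsa-miR-424-5p: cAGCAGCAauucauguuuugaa
hsa-miR-16-5p: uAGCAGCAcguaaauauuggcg
hsa-miR-200c-3p: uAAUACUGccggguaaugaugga
hsa-miR-429: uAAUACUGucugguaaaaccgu

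The longest annotated 3' UTR of each gene (GENCODE 29, GRCh38; transcript strand only) was searched for the complements of these seeds. TGCTGCT, the match to the miR-424-5p seed, was found in 1 of the 9, PRRX1, and was absent from these UTR sequences of the 7 tested genes. Of 9623 tested genes with an annotated 3' UTR (median length 1406 nt), 25.2% held it. The match to bases 2 to 7 followed by A, GCTGCTA, occurred once, in SNAI2, and in 10.3% of the 9623 genes; a TGCTGCT followed by A also holds it. CAGTATT, the match to the miR-200b, miR-200c and miR-429 seed, was found 6 times in ZEB1 (2549 nt), 5 times in ZEB2 (5370 nt) and 1 time each in SNAI2 (1203 nt) and KLF8 (3561 nt). Of the 9623 genes 20.1% held it, and 29 (0.301%) held 4 or more. The other UTR lengths were 830 nt for SNAI1, 1790 nt for FOXC1, 887 nt for FOXC2, 3233 nt for PRRX1 and 2660 nt for SOX4. The PRRX1 site (chr1:170737289-170737295, plus strand) is shown because it is the sole full seed match to the over-expressed microRNA, and 4 of the ZEB sites are shown to mark which microRNA family these UTRs match. Capitals mark the seed match, and the ZEB sites lie at chr10:31527633-31527639 and chr10:31528577-31528583 (plus strand) and at chr2:144388990-144388996 and chr2:144388632-144388638 (minus strand).

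PRRX1 site: aattagggatctTGCTGCTtttctttttct
ZEB1 site 1: gttttatcttatCAGTATTatcactcttat
ZEB1 site 5: cttcaaacctggCAGTATTaatacccttct
ZEB2 site 2: actacaatgcatCAGTATTatgattcctct
ZEB2 site 3: aagcacccatgtCAGTATTagaagaatagg

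A match of letters is a description and does not show that a site is used. The precursor loci MIR200A, MIR200B, MIR429, MIR200C and MIR141 were listed at 0 in all 6 libraries, which were made from mRNA and do not measure mature microRNAs.

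The construct was checked before the regulators. The host locus of miR-424 (MGC16121, MIR424; chrX:133677406-133680741, hg19) read 107, 106 and 224 FPKM in miR-424 replicates 1, 2 and 3, against 0.989, 1.27 and 1.23 FPKM in EV replicates 1, 2 and 3. Each library's FPKM values added up to 409776 to 424564; its number of reads was not given. miR-424 replicate 3 stood apart from the other libraries. Its median absolute log2 difference from miR-424 replicates 1 and 2 was 0.142 and 0.152, while replicates 1 and 2 differed by 0.041 and pairs of EV libraries by 0.036 to 0.042. Its median deviation from the EV mean over tested loci was -0.113, against -0.017 and -0.019 for miR-424 replicates 1 and 2. Deviations also ran with the GC content of transcripts: under 40% GC the medians were 0.070, 0.089 and -0.220 in miR-424 replicates 1, 2 and 3, and over 60% GC they were -0.092, -0.120 and -0.050. For this reason values are given with all libraries, without miR-424 replicate 3, and without it after each library's GC trend was removed.

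For each tested regulator but FOXC2, the group means differed by less than the SD of the 3 miR-424 libraries. None of the 7 tested genes passed limma at a Benjamini-Hochberg adjusted p under 0.05 with all 6 libraries, in a background of 1.24% of tested loci called higher and 6.32% called lower, and FOXC2 alone had an unadjusted p under 0.05. The median log2 change of the 7 was 0.03, beside -0.047 over all tested loci, and 4 of the 7 estimates were above 0. The shares of all tested loci at an unadjusted p under 0.05 or above 0 were not counted. Counts of these kinds, here and below, therefore stand without a background and are descriptions. Over all loci 144 were called higher and 731 lower with values as deposited, and 344 and 436 after median-of-ratios scaling. Without miR-424 replicate 3, 4 of the 7 were called higher (SOX4, SNAI1, FOXC1 and ZEB1) and 1 lower (FOXC2). The background then was 14.9% of loci called higher and 22.2% called lower. With the GC trend removed as well, 3 were called higher (SOX4, SNAI1 and FOXC1) and 1 lower (FOXC2), against 14.6% and 15.1% of 11407 loci with a GC value.

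By level, SNAI2 was the most abundant of the 9, with a mean of 52.4 FPKM over the 6 libraries. SOX4 (10.4 FPKM) and ZEB1 (9.49 FPKM) followed and their ranges overlapped in each group. ZEB2 (6.04 FPKM), FOXC2 (5.82 FPKM) and FOXC1 (4.54 FPKM) came next. ZEB2 and FOXC2 overlapped in EV cells, whereas in miR-424 cells the lowest ZEB2 value, 5.84 FPKM, lay above the highest FOXC2 value, 5.56 FPKM. FOXC2 and FOXC1 overlapped in miR-424 cells, and in EV cells the lowest FOXC2 value, 6.33 FPKM, lay above the highest FOXC1 value, 4.65 FPKM. SNAI1 (2.44 FPKM), KLF8 (0.0881 FPKM) and PRRX1 (0.0196 FPKM) stood at the low end, each without overlap with the gene before it.

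**Figure D1:**
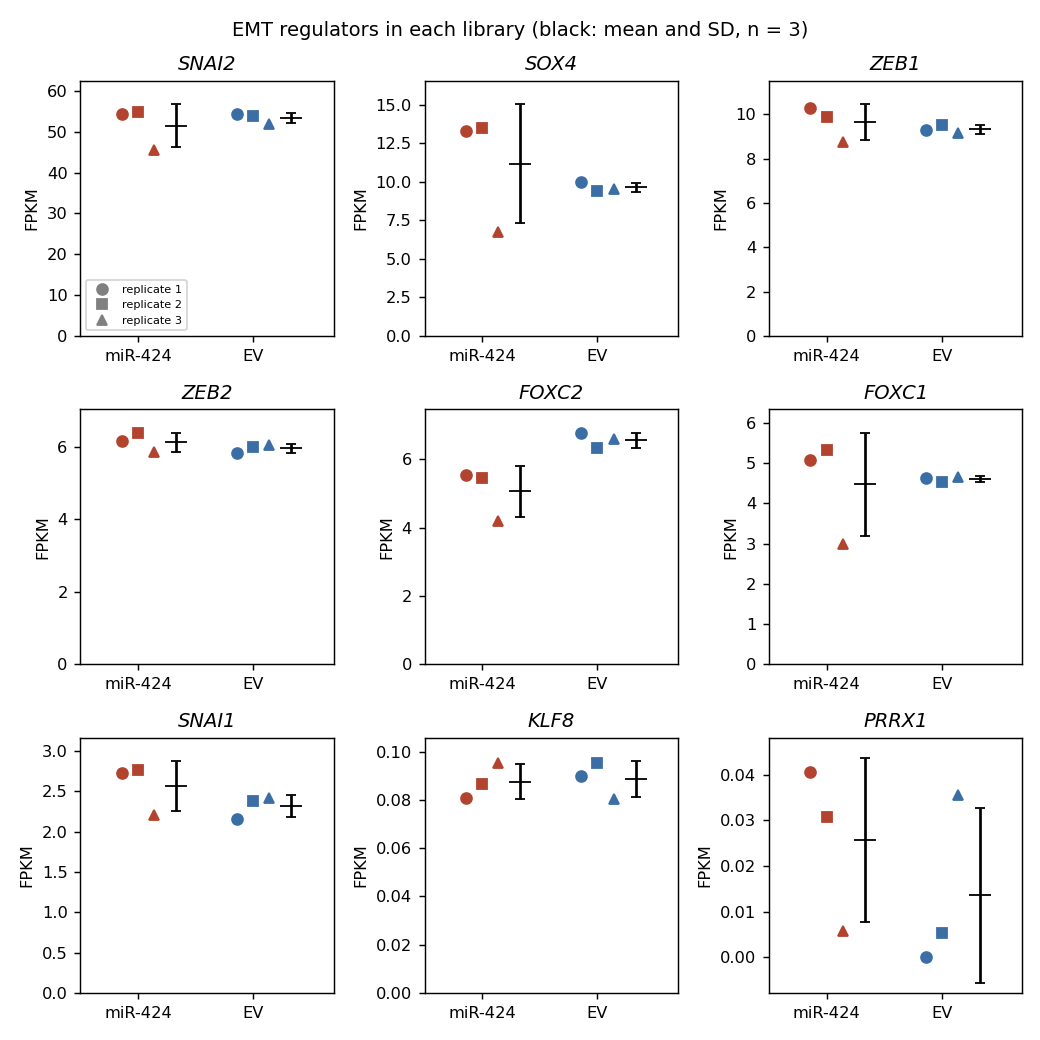
FPKM of the 9 regulators in each library, on a linear axis of its own for each gene, in order of mean level; circles, squares and triangles are replicates 1, 2 and 3 of miR-424 cells (left, red) and EV cells (right, blue), and black bars are mean and SD (n = 3). The triangle of miR-424 lies lowest of its group in all 7 genes from SNAI2 to SNAI1, and FOXC2 is the panel in which all 3 miR-424 points lie under all 3 EV points.

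SNAI1 encodes Snail, an early inducer of EMT. It read 2.73, 2.76 and 2.21 FPKM in miR-424 replicates 1, 2 and 3, against 2.16, 2.38 and 2.42 FPKM in EV replicates 1, 2 and 3 (chr20:48599512-48605420, hg19). miR-424 replicates 1 and 2 lay above every EV library and replicate 3 lay among them, so the groups overlapped. The log2 change was 0.10 ± 0.07 (SE), with a 95% interval of -0.08 to 0.28 (adjusted p = 0.483, limma with Benjamini-Hochberg adjustment). Leaving out replicate 3 gave 0.17 ± 0.05 (adjusted p = 0.0296, same test), and with the GC trend also removed 0.25 ± 0.05 (adjusted p = 0.0113).

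SNAI2 encodes Slug, which is known in basal mammary cells and their stem cell state. It read 54.3, 54.7 and 45.4 FPKM in miR-424 replicates 1, 2 and 3, against 54.3, 53.9 and 52.0 FPKM in EV replicates 1, 2 and 3 (chr8:49830238-49833999, hg19). Apart from the lower value of miR-424 replicate 3, the libraries lay within the same narrow range. The estimated log2 change, -0.06 ± 0.07 (SE), had a 95% interval of -0.24 to 0.12 (adjusted p = 0.715, limma with Benjamini-Hochberg adjustment) and its sign turned with median-of-ratios scaling. The interval without miR-424 replicate 3, -0.03 to 0.09, was the narrower, and with the GC trend also removed it ran from -0.05 to 0.04. SNAI2 passed the test in none of the 17 alternatives.

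ZEB1 and ZEB2 encode the zinc finger homeobox repressors that keep cells mesenchymal. ZEB1 (chr10:31608100-31818742, hg19) read 10.3, 9.89 and 8.75 FPKM in miR-424 replicates 1, 2 and 3, against 9.29, 9.51 and 9.14 FPKM in EV replicates 1, 2 and 3. ZEB2 (chr2:145141941-145278465, hg19) read 6.14, 6.37 and 5.84 FPKM in miR-424 replicates 1, 2 and 3, against 5.82, 5.98 and 6.05 FPKM in EV replicates 1, 2 and 3. For both genes miR-424 replicates 1 and 2 lay above every EV library and replicate 3 did not. The log2 changes were 0.05 ± 0.06 for ZEB1 (95% interval -0.10 to 0.20) and 0.03 ± 0.05 for ZEB2 (-0.08 to 0.14), with limma Benjamini-Hochberg adjusted p of 0.735 and 0.733 (SE, n = 3 in each group). When replicate 3 was left out, ZEB1 was 0.11 ± 0.03 higher on the log2 scale (adjusted p = 0.0377, limma with Benjamini-Hochberg adjustment), and with the GC trend also removed it no longer passed (0.06, adjusted p = 0.206). Transcripts of ZEB1 have a GC content of 40.7%, at the low edge of the class of 40% to 60% GC. Over loci of that class the median deviations of miR-424 replicates 1, 2 and 3 were -0.015, -0.016 and -0.105. In the neighbouring class under 40% GC they were 0.070, 0.089 and -0.220. ZEB2 passed in none of the 17 alternatives.

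The antisense gene ZEB1-AS1, listed as a separate locus next to ZEB1 (chr10:31605456-31608024), read 2.59, 2.70 and 2.80 FPKM in miR-424 cells and 2.87, 2.77 and 2.72 FPKM in EV cells (replicates 1, 2 and 3; log2 change -0.04, limma, Benjamini-Hochberg adjusted p = 0.703). ZEB2-AS1 is listed within the interval of ZEB2, at 0.105 FPKM or less in every library. Whether the counting used strand was not stated, so reads of a gene and its antisense partner cannot be told apart where they overlap.

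FOXC2, a forkhead factor that promotes the mesenchymal state, was the regulator with the smallest p with all 6 libraries (chr16:86600856-86602537, hg19). It read 5.56, 5.45 and 4.21 FPKM in miR-424 replicates 1, 2 and 3, against 6.77, 6.33 and 6.59 FPKM in EV replicates 1, 2 and 3. All 3 miR-424 libraries lay below all 3 EV libraries, a pattern shared by 26.9% of tested loci in this direction and by 6.59% in the other, in which none of the 7 genes fell. The means were 5.07 ± 0.748 FPKM in miR-424 cells and 6.57 ± 0.218 FPKM in EV cells (SD, n = 3), a ratio of 0.77. The log2 change was -0.32 ± 0.09 (SE; 95% interval -0.54 to -0.10), and limma gave an adjusted p of 0.0871 (Benjamini-Hochberg; 0.0104 before adjustment). Leaving out miR-424 replicate 3, the library that stood apart, gave a smaller change with a smaller SE, -0.22 ± 0.04 (adjusted p = 0.00464, same test). With the GC trend also removed the change was -0.13 ± 0.03 (adjusted p = 0.0281, same test). FOXC2 transcripts have a GC content of 60.8% and lie in the class where all 3 miR-424 libraries read low over loci as a whole. In these bulk libraries fewer cells with a transcript and less of it per cell cannot be told apart.

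FOXC1, the closest relative of FOXC2 and known in basal-like breast cancer, had another pattern (chr6:1610680-1614129, hg19). It read 5.09, 5.33 and 2.99 FPKM in miR-424 replicates 1, 2 and 3, against 4.64, 4.52 and 4.65 FPKM in EV replicates 1, 2 and 3. miR-424 replicates 1 and 2 lay above all EV libraries and replicate 3 far below all of them. With all libraries the estimate was -0.06 ± 0.17 on the log2 scale (SE; 95% interval -0.46 to 0.34; adjusted p = 0.871, limma with Benjamini-Hochberg adjustment). Leaving out replicate 3 gave 0.15 ± 0.04 (adjusted p = 0.0183, same test), and with the GC trend also removed 0.21 ± 0.04 (adjusted p = 0.00591). With all 6 libraries after the GC trend was removed the estimate was 0.00066. The sign of the change therefore rested on 1 library and on the processing.

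SOX4 is a TGF-beta induced factor known to activate EZH2 in EMT (chr6:21593971-21598849, hg19). It read 13.3, 13.5 and 6.74 FPKM in miR-424 replicates 1, 2 and 3, against 9.98, 9.41 and 9.51 FPKM in EV replicates 1, 2 and 3. miR-424 replicates 1 and 2 averaged 1.39 times the EV mean, and replicate 3 lay below every EV library. With all libraries its log2 change came to 0.14 ± 0.23 (SE; 95% interval -0.42 to 0.70; adjusted p = 0.782, limma with Benjamini-Hochberg adjustment). In the fit that leaves out miR-424 replicate 3 it was 0.44 ± 0.03 (95% interval 0.36 to 0.52; adjusted p = 0.000238, same test), and with the GC trend also removed 0.47 ± 0.03 (0.39 to 0.55; adjusted p = 0.0002). Replicate 3 deviated from the EV mean by -0.46, nearly the size by which replicates 1 and 2 deviated upward (0.42 and 0.45), and this library also had the highest host locus value, 224 FPKM; a relation between the 2 values was not tested. EZH2 read 25.3, 25.9 and 23.8 FPKM in miR-424 cells and 26.8, 27.9 and 28.2 FPKM in EV cells (replicates 1, 2 and 3; log2 change -0.14, limma, Benjamini-Hochberg adjusted p = 0.128). Leaving out replicate 3 gave EZH2 a log2 change of -0.10 (adjusted p = 0.025), and with the GC trend also removed of -0.12 (adjusted p = 0.0192).

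PRRX1 and KLF8 were close to 0. PRRX1 (chr1:170633312-170708541, hg19) read 0.0406, 0.0307 and 0.00577 FPKM in miR-424 replicates 1, 2 and 3, and was listed at 0, 0.00526 and 0.0355 FPKM in EV replicates 1, 2 and 3. KLF8 (chrX:56258821-56314322, hg19) read 0.081, 0.0865 and 0.0954 FPKM in miR-424 replicates 1, 2 and 3, against 0.0899, 0.0954 and 0.0806 FPKM in EV replicates 1, 2 and 3. In both genes the groups overlapped, and without read numbers no limit of detection can be set. The site for miR-424-5p shown above thus lies in a transcript that was barely present in either group.

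**Figure D2:**
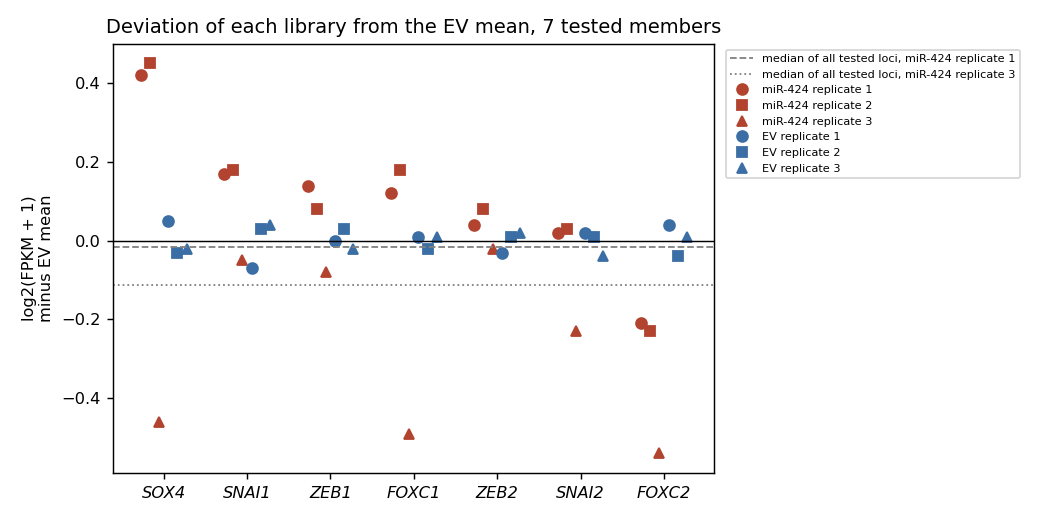
Deviation of each library from the EV mean on the log2(FPKM + 1) scale for the 7 tested regulators, with miR-424 libraries in red, EV libraries in blue, replicate number by symbol, and lines at the medians of all tested loci in miR-424 replicate 1 (dashed) and replicate 3 (dotted). SOX4 lies at 0.42 and 0.45 in miR-424 replicates 1 and 2 and at -0.46 in replicate 3, and FOXC2 lies below 0 in all 3 miR-424 libraries.

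miR-424 replicate 3 read low in the regulators, as it did over most tested loci. It was the lowest library of its group in 7 of 7 tested genes, as in 62.8% of all tested loci, and the lowest of all 6 libraries in 5 of 7, as in 54.4%. Replicates 1 and 2 both lay above all EV libraries in 5 of 7 genes, as in 26.9% of loci. The median difference of replicate 3 from the mean of replicates 1 and 2 was -0.26 (log2) over the 7 and -0.090 over all tested loci. It was -0.90 for SOX4 and -0.64 for FOXC1, and 0.207% and 0.579% of tested loci had a lower value. FOXC2 followed at -0.32, SNAI2 at -0.26, SNAI1 at -0.22, ZEB1 at -0.19 and ZEB2 at -0.08. For these, in the same order, 12.1%, 19.8%, 25.5%, 30.9% and 51.1% of tested loci had a lower value. SOX4, FOXC1 and FOXC2, the 3 with the largest shortfall, are also the 3 annotated with a single exon (GENCODE 29). Over 510 tested loci with 1 exon the median shortfall was -0.058, and over 10897 loci with several exons -0.091.

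The genes whose library profile was most like that of SOX4, by root mean square difference of log2 deviations over the 6 libraries among 11567 loci, were C1orf192 (0.049) and OGFRL1 (0.072). C1orf192 read 3.84, 4.02 and 1.87 FPKM in miR-424 cells and 3.07, 2.75 and 2.78 FPKM in EV cells (replicates 1, 2 and 3). For FOXC1 they were ESF1 (0.012) and RSL1D1 (0.025), with ESF1 at 22.1, 22.7 and 14.3 FPKM in miR-424 cells and 20.3, 20.0 and 20.3 FPKM in EV cells. The 4 genes share with SOX4 and FOXC1 the low value of miR-424 replicate 3, and nothing more is read from this likeness.

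**Figure D3:**
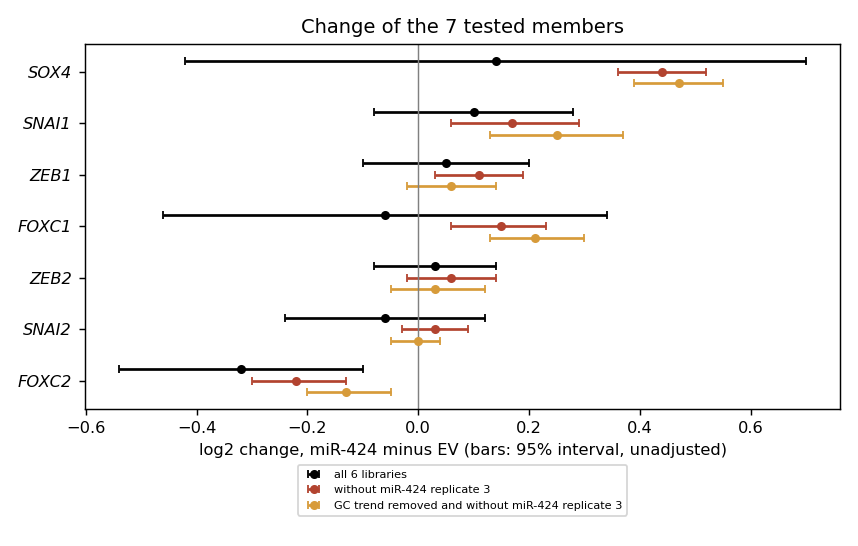
Log2 change (miR-424 minus EV, log2(FPKM + 1) scale) of the 7 tested regulators with all 6 libraries (black), without miR-424 replicate 3 (red) and without it after removal of the GC trend (yellow); bars are 95% intervals from limma, not adjusted. The interval of SOX4 runs from -0.42 to 0.70 with all libraries and from 0.36 to 0.52 without replicate 3, and FOXC2 lies below 0 in all 3 fits.

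Ratios between relatives within a library do not depend on its scaling, and 3 were compared by exact two-sided permutation tests, whose smallest possible p with 3 against 3 is 0.1. SNAI2 over SNAI1 was 19.9, 19.8 and 20.5 in miR-424 replicates 1, 2 and 3, against 25.2, 22.6 and 21.5 in EV replicates 1, 2 and 3. All 3 miR-424 ratios lay below all EV ratios (exact permutation p = 0.1, Benjamini-Hochberg adjusted 0.3), and miR-424 replicate 3 did not stand apart here. FOXC1 over FOXC2 was 0.916, 0.977 and 0.711 in miR-424 cells, against 0.686, 0.713 and 0.706 in EV cells (exact permutation p = 0.2, adjusted 0.3). ZEB1 over ZEB2 was 1.68, 1.55 and 1.50 in miR-424 cells, against 1.60, 1.59 and 1.51 in EV cells (exact permutation p = 1.0).

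The genes around these factors were counted in 7 lists, with the same limma test over all loci. In the 7 lists together, with 106 distinct loci tested, 10 genes were called higher and 10 lower, beside 1.24% and 6.32% of all tested loci. Counts below that leave out miR-424 replicate 3 stand beside 14.9% and 22.2% of all loci. Without EV replicate 1, 2 or 3, 31 to 35 loci of the whole table were called higher and 77 to 84 lower. Most calls of any kind therefore ended in those fits. BTRC, FN1 and PPL were the genes of these lists that passed in every alternative that could be fitted.

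Proteins that set the turnover of SNAI factors were mostly without a call. Of 16 tested genes 1 was higher and 1 lower, with a median log2 change of -0.062. BTRC, the F-box protein that marks phosphorylated SNAI1 for degradation, read 2.41, 2.62 and 2.55 FPKM in miR-424 replicates 1, 2 and 3, against 3.77, 3.79 and 3.65 FPKM in EV replicates 1, 2 and 3. The groups were far apart, with a log2 difference of -0.43 ± 0.04 (SE; adjusted p = 0.00467, limma with Benjamini-Hochberg adjustment) and adjusted p between 0.000227 and 0.0461 over 16 alternatives. PRKD1, a kinase that phosphorylates SNAI1, read 4.26, 4.11 and 3.90 FPKM in miR-424 cells and 3.44, 3.35 and 3.01 FPKM in EV cells. It was higher by 0.26 on the log2 scale (limma, Benjamini-Hochberg adjusted p = 0.044), and the call ended when any library but miR-424 replicate 3 was left out (highest adjusted p 0.165). GSK3B, the kinase that prepares SNAI1 for BTRC, read 15.8, 16.7 and 12.8 FPKM in miR-424 cells and 16.5, 16.3 and 16.1 FPKM in EV cells and did not pass (adjusted p = 0.526, limma with Benjamini-Hochberg adjustment). These are mRNA levels and SNAI protein was not measured.

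Of 19 tested corepressor genes, none passed the limma test with Benjamini-Hochberg adjustment (2.0 higher and 2.0 lower at an unadjusted p under 0.05), and the median log2 change was -0.032. The most abundant were HDAC1, a histone deacetylase, and KDM1A, a histone demethylase that SNAI1 recruits. HDAC1 read 66.4, 67.4 and 64.6 FPKM in miR-424 cells and 60.3, 60.9 and 62.2 FPKM in EV cells (log2 change 0.11, adjusted p = 0.119, limma with Benjamini-Hochberg adjustment). KDM1A read 58.3, 57.1 and 56.0 FPKM in miR-424 cells and 52.9, 53.0 and 52.7 FPKM in EV cells (log2 change 0.11, adjusted p = 0.111, limma with Benjamini-Hochberg adjustment). Neither pair of groups overlapped, as in 6.59% of tested loci in this direction. Leaving out miR-424 replicate 3 gave 3 higher and 3 lower, beside 14.9% and 22.2% of all loci. Higher were HDAC1, KDM1A and BMI1 (limma adjusted p = 0.00464, 0.0036 and 0.0105). Lower were EZH2, EED and SUV39H1 (limma adjusted p = 0.025, 0.0139 and 0.00886). The BMI1 values belong to a locus merged with COMMD3 and cannot be given to BMI1 alone.

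Genes of signals upstream of SNAI and ZEB transcription, not split by activating or restraining role, went both ways. Of 22 tested genes 2 were higher and 3 lower, with a median log2 change of -0.011. The ligand gene TGFB1 read 23.1, 21.6 and 24.7 FPKM in miR-424 cells and 30.8, 31.7 and 31.3 FPKM in EV cells (log2 change -0.42, limma, Benjamini-Hochberg adjusted p = 0.00867). The ligand gene TGFB2 lay above EV in each miR-424 library, with 48.6, 47.8 and 35.0 FPKM in miR-424 cells and 30.4, 31.0 and 31.3 FPKM in EV cells. Its groups did not overlap and it did not pass with all libraries (0.47, adjusted p = 0.0624, limma with Benjamini-Hochberg adjustment), but did without miR-424 replicate 3 (0.62, adjusted p = 2.93e-05) and with all libraries after the GC trend was removed (adjusted p = 0.00237). The Notch ligand gene JAG1 was lower at 7.65, 7.40 and 7.41 FPKM in miR-424 cells, against 9.71, 9.26 and 9.83 FPKM in EV cells (-0.32, adjusted p = 0.00923, limma with Benjamini-Hochberg adjustment), and the coreceptor gene TGFBR3 was lower by 0.34 (adjusted p = 0.0312). HIF1A, the hypoxia factor, read 239, 244 and 203 FPKM in miR-424 cells and 181, 177 and 173 FPKM in EV cells (0.36, adjusted p = 0.0315). The receptor gene TGFBR2 was the other call (0.30, adjusted p = 0.0433, limma with Benjamini-Hochberg adjustment). Without EV replicate 1, 2 or 3 none of these 5 calls remained. The calls of HIF1A and TGFBR2 also ended without miR-424 replicate 1 or 2, where the list had 0 higher and 2 or 3 lower. With no filter on low values it had 0 higher and 2 lower. Without miR-424 replicate 3 there were 7 higher and 7 lower.

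Among 16 tested EMT transcription factors outside the 9, HMGA2 was higher and SIX2 lower, and the median log2 change was -0.031. HMGA2, a chromatin protein that activates SNAI1 and TWIST1 transcription, read 70.0, 73.5 and 56.7 FPKM in miR-424 replicates 1, 2 and 3, against 39.1, 39.9 and 39.7 FPKM in EV replicates 1, 2 and 3. It was higher by 0.73 on the log2 scale (adjusted p = 0.00842, limma with Benjamini-Hochberg adjustment). SIX2, a homeobox gene, read 2.18, 2.42 and 2.13 FPKM in miR-424 cells and 3.02, 3.09 and 3.33 FPKM in EV cells (log2 change -0.35, adjusted p = 0.0149, limma with Benjamini-Hochberg adjustment). TWIST1 itself read 52.4, 53.2 and 32.9 FPKM in miR-424 cells and 62.8, 59.4 and 58.6 FPKM in EV cells, below in all 3 as in 26.9% of tested loci, and did not pass with all libraries (-0.41, adjusted p = 0.22, limma with Benjamini-Hochberg adjustment). It passed when miR-424 replicate 3 was left out (-0.19, adjusted p = 0.00466) and with the GC trend also removed (-0.11, adjusted p = 0.027). In these fits the list had 2 higher and 7 lower, and 3 higher and 5 lower. The calls of HMGA2 and SIX2 ended without EV replicate 1, 2 or 3 (highest limma adjusted p 0.0588 for HMGA2 and 0.0845 for SIX2). That of SIX2 also ended without miR-424 replicate 1. Most calls over all loci ended as well when an EV library was left out. Of 6 tested paralogs of the 9 genes none passed the limma test (0.0 higher and 2.0 lower at an unadjusted p under 0.05). FOXD1 repeated the SOX4 pattern with 14.0, 15.8 and 8.71 FPKM in miR-424 cells, against 12.8, 12.2 and 12.2 FPKM in EV cells, and SOX12 read 7.95, 7.30 and 6.53 FPKM in miR-424 cells, against 8.77, 8.96 and 8.67 FPKM in EV cells (adjusted p = 0.0742, limma with Benjamini-Hochberg adjustment).

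Epithelial genes that SNAI and ZEB factors are known to repress reached the minimum for testing in 11 of 35 cases, where the 35 include the 5 miR-200 family precursor loci and 1 gene not found in the table. Untested genes had means of up to 0.714 FPKM (INADL, a tight junction protein). E-cadherin (CDH1) had a mean of 0.0206 FPKM over the 6 libraries and GRHL2, a keeper of the epithelial state, was listed at 0. Of the 11 none was higher (1.0 at an unadjusted p under 0.05) and 4 were lower, with a median log2 change of -0.27 beside -0.047 over all tested loci. The junction genes PPL (log2 change -0.46), CLDN7 (-0.36), PKP3 (-0.27) and DSP (-0.44) made up the 4 (limma, Benjamini-Hochberg adjusted p = 0.00634, 0.0107, 0.016 and 0.0257). Desmoplakin (DSP) read 6.71, 7.00 and 5.50 FPKM in miR-424 cells and 9.12, 9.05 and 8.78 FPKM in EV cells. Of the 11, 2 had estimates above 0, CLDN1 and EPCAM. The junction gene CLDN1 was above every EV library in each miR-424 library (log2 change 0.18, adjusted p = 0.172, limma with Benjamini-Hochberg adjustment), as were 6.59% of tested loci. EPCAM changed by 0.09. The most abundant of the 11, KRT8 (mean 162 FPKM) and KRT18 (86.5 FPKM), changed by -0.04 and -0.05, and their groups overlapped. PKP3 missed the threshold with the GC trend removed (adjusted p = 0.0543, limma with Benjamini-Hochberg adjustment). Without EV replicate 1, 2 or 3 PPL alone of the 4 was called, where most calls over all loci ended too. Without miR-424 replicate 3 there were 7 lower.

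Mesenchymal genes known to rise with SNAI, ZEB or PRRX1 had 6 higher and 1 lower among 16 tested, with a median log2 change of 0.084. FN1 (fibronectin) was higher by 0.67 and TAGLN (an actin-binding protein) by 0.59 on the log2 scale (limma, Benjamini-Hochberg adjusted p = 0.000668 and 0.00947). COL6A3 (0.33), MMP2 (0.23), MMP14 (0.18) and COL1A1 (0.21) were the others, and the matrix gene TNC was lower (-0.18, adjusted p = 0.0346, limma with Benjamini-Hochberg adjustment). Vimentin (VIM) read 966, 988 and 1046 FPKM in miR-424 cells and 968, 985 and 957 FPKM in EV cells, so its groups overlapped. With median-of-ratios scaling MMP14 and TNC lost their calls and the integrin gene ITGA5 gained a call, giving 6 higher and 0 lower. Without miR-424 replicate 3 there were 9 higher and 2 lower. Leaving out 1 of the remaining 5 gave 1 to 4 higher and 0 lower, beside 31 to 83 higher and 77 to 365 lower over all loci. The lists were drawn up with earlier results of these data known, so their directions are descriptions.

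**Figure D4:**
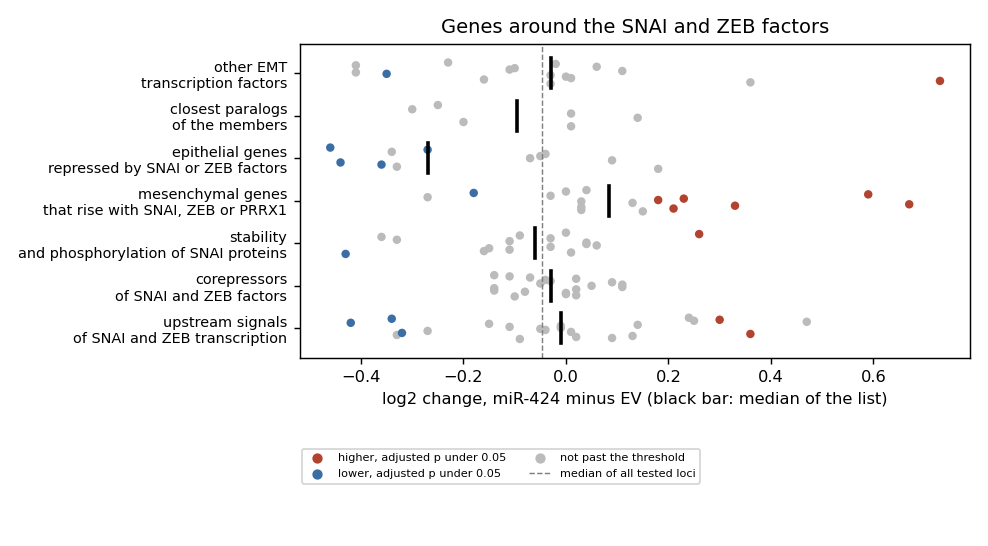
Log2 change (miR-424 minus EV, log2(FPKM + 1) scale) of the tested genes in 7 lists around the SNAI and ZEB factors, each point a gene, red and blue where limma with Benjamini-Hochberg adjustment called it higher or lower with all 6 libraries, grey otherwise; black bars are list medians and the dashed line is the median of all tested loci, -0.047. The median of the epithelial list lies at -0.27 and that of the mesenchymal list at 0.084, and the corepressors lie close around the line.

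Markers of other cell types were read beside these values. Summed over 8 fibroblast markers the level was 202, 195 and 178 FPKM in miR-424 replicates 1, 2 and 3, against 179, 169 and 168 FPKM in EV replicates 1, 2 and 3, with DCN at a mean of 125 FPKM, COL1A1 at 42.1 FPKM and FAP at 13.6 FPKM; the 5 untested ones ranged from 0.0176 FPKM (PDGFRA) to 0.59 FPKM (COL3A1). Of the 3 tested, COL1A1 was called higher with all libraries. FAP averaged 14.9 FPKM in miR-424 cells and 12.2 FPKM in EV cells without overlap (adjusted p = 0.0964, limma with Benjamini-Hochberg adjustment). Without miR-424 replicate 3 all 3 were called higher. Leukocyte markers (7) summed to 2.06 to 2.34 FPKM in miR-424 cells and 2.22 to 2.36 FPKM in EV cells, with PTPRC at 0.0534 FPKM. Endothelial markers (6) summed to 0.304 to 0.374 FPKM in miR-424 cells and 0.358 to 0.389 FPKM in EV cells, with none tested. Luminal markers (8) summed to 243 to 264 FPKM in miR-424 cells and 253 to 263 FPKM in EV cells, led by KRT8 (mean 162 FPKM), with ESR1 at 0.0701 FPKM. Basal markers (10) summed to 136 to 139 FPKM in miR-424 cells and 155 to 161 FPKM in EV cells, with 3 of 8 tested called lower (KRT5, TRIM29 and ITGB4), 1 called higher (KRT14) and TP63 at 0.153 FPKM. The part of the fibroblast and basal markers in the results above was not tested.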

How the data were processed

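The authors deposited 1 table with an FPKM value per locus and library, with hg19 coordinates. TopHat 1.4.1, Cufflinks 1.3.0 and Cuffdiff are named in the submitters' processing notes without role or order. The sources used here give no read numbers, strand or scaling. In each library at most 13.9% of low loci had a ratio to EV replicate 1 near the most frequent such ratio. Depth was therefore not recovered and no interval for counting error is given. Values were taken as log2(FPKM + 1), a scale that understates changes of low genes. The 11574 loci averaging 1 FPKM or more were compared, miR-424 minus EV, two-sided, with limma 3.58.1 in R 4.3.3 (trended prior variance, no covariate, Benjamini-Hochberg, threshold 0.05). The fit was tested on simulated data with equal noise in all libraries and log2 changes of size 1. It was not tested with an outlying library or a GC trend. A library's GC trend was removed by loess (span 0.3) on GENCODE 29 transcripts, which gave GC for 98.6% of tested loci. 3' UTRs came from GENCODE 29 by symbol, microRNAs from RefSeq. In all 17 alternatives were tried.

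The 9 genes, the gene lists and the markers were chosen with earlier results of these data known. Named genes were the 9, the MIR424 host locus, the 2 nearest profiles for the 2 most variable of the 9, marker genes at 0 or highest in their list and, per list, up to 4 calls with the smallest adjusted p or else the 2 with the highest mean. Other genes named (ZEB1-AS1, ZEB2-AS1, TWIST1, EZH2, EED, SUV39H1, BMI1, GSK3B, TGFBR2, TGFB2, ITGA5, INADL, MMP14, COL1A1, TNC, VIM, CDH1, GRHL2, CLDN1, EPCAM, KRT18 and further markers) were added after their values were seen. A marker gene that this rule selects is not reported here.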

Additional observations from a re-analysis of the deposited data

How the results depend on the processing

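With all 6 libraries 0 of the regulators were called, and this held in 14 of 17 alternatives in each direction. The 3 others were arrayWeights (2 higher and 1 lower, with a weight of 0.08 for miR-424 replicate 3), leaving out miR-424 replicate 3 (4 and 1) and the same with the GC trend removed (3 and 1). Leaving out 1 library thus gave 0 to 4 higher and 0 to 1 lower. Over all loci arrayWeights called 1256 higher and 2307 lower. The other 2 fits called 14.9% and 22.2%, and 14.6% and 15.1%. The 14 include the fits without EV replicate 1, 2 or 3, which called 31 to 35 loci higher and 77 to 84 lower. With so few calls of any kind, 0 regulators called there says little. The estimate of SNAI2 changed sign with median-of-ratios scaling (0.01), arrayWeights (0.02) and without miR-424 replicate 3 (0.03), that of FOXC1 with arrayWeights (0.13), the GC trend removed (0.00066), without replicate 3 (0.15) and with both (0.21), that of ZEB1 without miR-424 replicate 1 (-0.00082) and that of SOX4 without miR-424 replicate 1 (-0.0028) or 2 (-0.02). Leaving out 1 library gave -0.10 to 0.03 for SNAI2, -0.00082 to 0.11 for ZEB1, -0.18 to 0.15 for FOXC1 and -0.02 to 0.44 for SOX4. Over the alternatives the limma Benjamini-Hochberg adjusted p ran from 0.0113 to 0.802 for SNAI1, 0.398 to 0.926 for SNAI2, 0.0377 to 0.997 for ZEB1, 0.2 to 0.943 for ZEB2, 0.00591 to 0.999 for FOXC1, 0.00464 to 0.278 for FOXC2 and 0.0002 to 0.997 for SOX4. SNAI1 and FOXC1 have no value at a minimum of 5 FPKM.

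Loci called higher (144) became 344 with median-of-ratios scaling, 319 with quantile normalization, 1256 with arrayWeights, 682 with the GC trend removed, 1664 with that and without miR-424 replicate 3, and 31 to 1728 without 1 library. Loci called lower (731) became 436, 447, 2307 and, for the combined setting, 1725, with 468 at a minimum of 5 FPKM and 77 to 2574 without 1 library. List genes called higher (10) became 6 without a filter, 25 with arrayWeights, 17 with the GC trend removed, 33 in the combined setting and 1 to 26 without 1 library. List genes called lower (10) became 5 at a minimum of 5 FPKM, 29 with arrayWeights, 21 in the combined setting and 2 to 33 without 1 library. The cause was not tested.

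With the replicate number as a block 0 regulators were called in either direction, FOXC2 had an adjusted p of 0.115 (limma, Benjamini-Hochberg), loci called were 79 higher and 270 lower, and list genes 5 and 6. Deviations of same-numbered miR-424 and EV libraries had correlations of 0.05, 0.15 and 0.13 for numbers 1, 2 and 3. Libraries of unlike number had -0.19 to 0.06, a range that holds the value of number 1. The labels do not say that the numbers pair the samples, so the main fit took no pairing, and pairing was not tested. Unknown read numbers and 3 libraries a group limit the precision of the low genes.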
